A study of Rattus norvegicus with 24 samples.

Results

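Immediate early genes are the transcripts that cells make first after a stimulus, without needing new protein. The 10 genes described here, Fos, Fosb, Jun, Junb, Egr1, Nr4a1, Npas4, Ier2, Arc and Dusp1, were taken by symbol from the 17420 genes of the deposited expression table. They were followed in the hippocampus and neocortex of 24 Sprague-Dawley rat pups on embryonic day 18, in 4 groups of 6 defined by what the mother received. Saline-treated controls, whose mothers were injected with saline and ate a control diet of 20.3% protein, were compared with Low Protein pups, whose mothers ate a 6.1% protein diet, with MAM pups, whose mothers were injected with the DNA-methylating agent methylazoxymethanol acetate at 22 mg/kg, and with Poly I:C pups, whose mothers were injected with the double-stranded RNA mimic polyinosinic:polycytidylic acid at 7.5 mg/kg. All injections, saline included, were given on gestational day 17, 18 hours before collection. For the injected MAM and Poly I:C dams the diet is not given in the sources used here, nor is any injection of the Low Protein dams. Each group held 3 pups from each of 2 litters, so the pup was the replicate in the tests although the dam was treated, and permuting litters could not reach the threshold.

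In neurons and other cells, calcium and growth factor signals act through kinases on factors already bound to DNA, chiefly SRF with its ELK partners at CArG boxes and CREB at cAMP response elements (CREs). The first genes they switch on encode transcription factors of the FOS, JUN, EGR, NR4A and NPAS families, effectors such as ARC, and brakes such as the phosphatase DUSP1. Their transcripts are short-lived, and in the brain they are widely used as marks of recent neuronal activity.

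Promoters of 7 of the 10 genes were found in RefSeq (assembly GRCr8). Those of Nr4a1, Ier2 and Dusp1 are shown because they hold several CRE cores or a full CRE. Each is the 250 bases before the start of the gene, 5′ to 3′ on the strand of the gene, with the CRE core (TGACG, or CGTCA on the other strand) in capitals. In Ier2 and Dusp1 the cores overlap in a full CRE, TGACGTCA.
Nr4a1: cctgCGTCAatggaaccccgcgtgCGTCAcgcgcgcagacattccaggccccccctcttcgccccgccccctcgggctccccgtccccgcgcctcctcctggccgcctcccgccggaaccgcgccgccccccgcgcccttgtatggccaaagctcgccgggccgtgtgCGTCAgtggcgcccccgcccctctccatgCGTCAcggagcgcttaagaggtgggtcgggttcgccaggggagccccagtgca
Ier2: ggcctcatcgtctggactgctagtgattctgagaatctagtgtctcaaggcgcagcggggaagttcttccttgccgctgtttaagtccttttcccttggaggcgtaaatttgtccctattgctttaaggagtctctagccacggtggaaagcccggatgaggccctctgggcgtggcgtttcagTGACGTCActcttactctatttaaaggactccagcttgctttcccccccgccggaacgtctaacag
Dusp1: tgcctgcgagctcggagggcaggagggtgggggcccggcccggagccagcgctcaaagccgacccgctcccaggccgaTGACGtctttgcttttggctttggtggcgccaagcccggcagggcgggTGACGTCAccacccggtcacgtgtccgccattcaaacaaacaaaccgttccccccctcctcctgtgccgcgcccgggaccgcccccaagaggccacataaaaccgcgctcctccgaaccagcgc
The Nr4a1 promoter is chr7:134259888-134260137, plus strand, the Ier2 promoter is chr19:40399123-40399372, plus strand, and the Dusp1 promoter is chr10:17184603-17184852, plus strand. A CRE core was present in 5 of the 7 promoters and in 19% of the 27457 promoters of the same length. The full CRE was present in 2 of the 7 and in 1.7% of all. An AP-1 motif (TGA, any base, TCA) was present in 0 of the 7 and in 6.36% of all. A GC box (GGGCGG) was present in 2 of the 7 and in 32.4% of all. The Fosb and Npas4 promoters held none of the motifs searched. The Egr1 promoter held 2 CArG boxes, a motif present in 1.5% of all promoters, and 2 CRE cores. Nr4a1 held 4 CRE cores and 1 EGR motif (CGCCCCCGC as read on this strand), which was present in 4.53% of all promoters. These are matches of letters within the window and not measured binding sites.

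Expression was given as TPM, a value normalized to gene length and library, with an offset of 0.0001, and values are compared between pups and not between genes. Reads per pup, estimated from the smallest steps between values, ranged from 24.3 to 68.5 M (megareads). Group medians were 29.9 M for Poly I:C, 42.6 M for Saline, 43.1 M for Low Protein and 49.7 M for MAM. The estimate takes 1 step as 1 read for every gene, although 1 read of Npas4 was worth 3.64 steps, so these totals are approximate. The 5 genes Jun, Junb, Egr1, Ier2 and Dusp1 were among the 5086 genes with a mean above 1 in every group. The other 5 were below that limit and were compared over 14233 genes, those above the offset in at least 6 pups. Markers of dorsal telencephalon were present in every pup, with a summed value of 208.9 to 418.7. Saline pup 1 of litter 2 stood apart, with the highest summed value of ganglionic eminence and striatum markers, 88.85, and the next highest pup was at 62.77.

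Egr1, Nr4a1 and Dusp1 were lower in Poly I:C pups than in saline-treated controls, and Egr1 and Dusp1 were lower in Low Protein pups. Jun and Junb were near the saline level in all 3 groups, with differences of at most 0.11 on the log2 scale. Of these genes, 0 differed from saline after adjustment over all genes, as did 0% of all genes tested in Low Protein and Poly I:C and 0.0197% in MAM. At an unadjusted limma p under 0.05, 2 of 5 genes passed in Poly I:C, against 9.95% of all genes tested, 2 of 5 passed in Low Protein, against 8.24%, and 0 of 5 passed in MAM, against 11.2%. With a log2 difference of at least 0.6 in size required as well, a limit added after the data were seen, Egr1 alone of the 5 passed in Poly I:C (0.059% of all genes tested), and 0 passed in Low Protein (0%) and MAM (0.0393%). In a test for any difference among the 4 groups 2 of 5 passed, again Egr1 and Dusp1, against 16.4%. Over the 14233 genes without the filter, 3 of 10 passed in Poly I:C (8.92% of all), 1 of 10 in Low Protein (6.98%) and 0 of 10 in MAM (9.56%). These are whole tissue values, in which fewer cells of a type and less RNA per cell cannot be told apart.

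**Figure D1:**
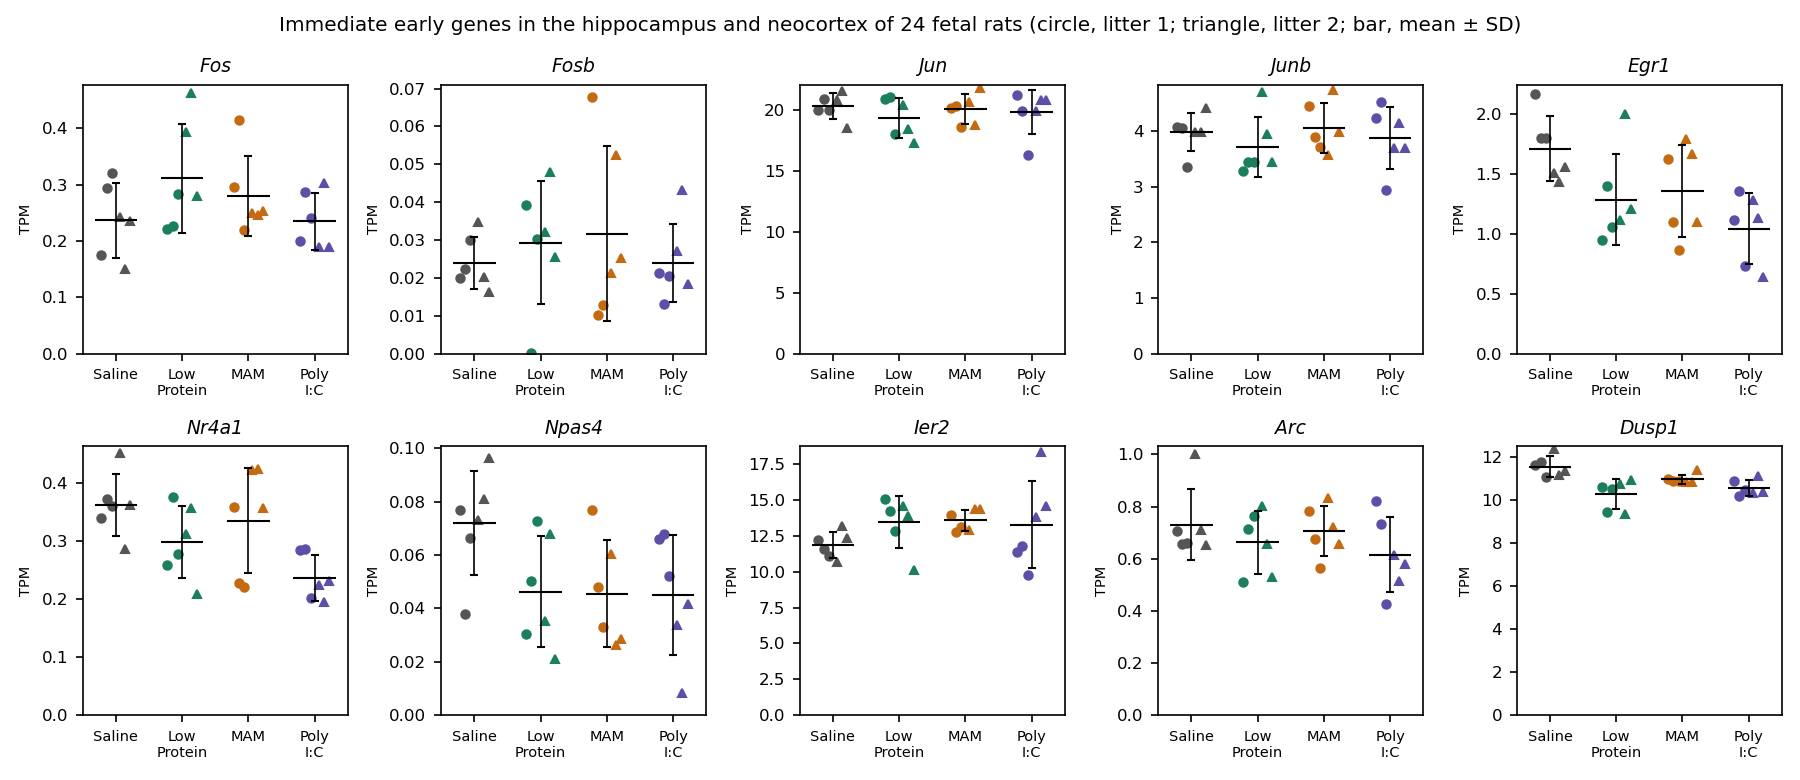
TPM (vertical axes, from 0) of the 10 genes in each of the 24 pups by group, with circles for litter 1, triangles for litter 2 and bars for the mean ± SD of 6 pups. All 6 Poly I:C pups lie below all saline pups in the Egr1 and Nr4a1 panels, and all 6 Low Protein pups do so in the Dusp1 panel.

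Egr1 encodes a zinc finger transcription factor induced through SRF and ELK. In saline pups Egr1 ranged from 1.43 to 2.17 TPM, with a median of 1.68. In Poly I:C pups it ranged from 0.640 to 1.36, with a median of 1.12. The groups did not overlap, and the Poly I:C mean of 1.04 ± 0.295 (SD, n = 6) was 39.1% below the saline mean of 1.71 ± 0.273 (SD, n = 6). The log2 difference was -0.76 (SE 0.203, limma p = 0.00109, adjusted p = 0.200), and the exact permutation p was 0.00216, the smallest that 6 pups against 6 allow. Estimated depth was also lowest in Poly I:C, as given above, and its part in the differences was not tested. Absence of overlap in the lower direction occurred in 0.354% of the genes tested. The difference was -0.58 without Saline litter 1 and -0.93 without Saline litter 2, and it kept a limma p under 0.05 in all 24 fits without 1 pup and all 8 without 1 litter.

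Low Protein pups had Egr1 values of 0.946 to 2.00 TPM, with a median of 1.16. Of these pups, 5 were below every saline pup, while pup 2 of litter 2, at 2.00, lay among them. Egr1 was 24.9% lower by the means, with a log2 difference of -0.44 (SE 0.203, limma p = 0.0392, adjusted p = 0.583, exact permutation p = 0.0390). It did not pass without Saline litter 1, at -0.27, or without Low Protein litter 1, at -0.29, and it passed in 17 of 24 fits without 1 pup. In MAM pups Egr1 ranged from 0.866 to 1.79, with a median of 1.36, and overlapped with saline (log2 difference -0.37, limma adjusted p = 0.466, exact permutation p = 0.0931). Within saline itself, the 3 pups of litter 1, at 1.80 to 2.17, were all above the 3 of litter 2, at 1.43 to 1.56. Chance alone readily separates 3 pups from 3, and this litter difference was not tested. Egr1 in Poly I:C and in MAM differed by -0.38 on the log2 scale (exact permutation p = 0.169), so a difference between these treatments was not shown.

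Nr4a1 encodes the orphan nuclear receptor NUR77. Saline pups had Nr4a1 at 0.287 to 0.452 TPM, with a median of 0.362, and Poly I:C pups at 0.195 to 0.286, with a median of 0.228. The groups did not overlap, although the highest Poly I:C pup and the lowest saline pup were nearly level. The Poly I:C mean was 34.5% lower, a log2 difference of -0.61 (SE 0.174, limma p = 0.00196, adjusted p = 0.346 over the genes without the filter, exact permutation p = 0.00216). Lower values without overlap occurred in 0.267% of those 14233 genes. The difference ranged from -0.73 to -0.50 when a litter was left out, and the limma p was under 0.05 in all 8 of those fits.

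The Low Protein pups had Nr4a1 at 0.210 to 0.376 TPM, with a median of 0.295, and overlapped with saline (log2 difference -0.30, limma adjusted p = 0.760, exact permutation p = 0.0844). MAM pups ranged from 0.221 to 0.425, with a median of 0.358 (log2 difference -0.15, limma adjusted p = 0.774, exact permutation p = 0.420). MAM litters differed in Nr4a1, with means of 0.270 in litter 1 and 0.402 in litter 2, and the MAM difference was -0.45 without litter 2 and 0.16 without litter 1. Poly I:C was 0.47 below MAM on the log2 scale (exact permutation p = 0.0541), and this difference did not pass the threshold.

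Dusp1 encodes a phosphatase that inactivates ERK, JNK and p38 kinases. In saline pups Dusp1 lay between 11.1 and 12.4 TPM, with a median of 11.5. Low Protein pups ranged from 9.38 to 11.0, with a median of 10.6, and did not overlap with saline, as was the case in the lower direction for 0.531% of the genes tested. The mean was 11.1% lower (log2 difference -0.17, SE 0.0443, limma p = 0.000738, adjusted p = 0.370), and the exact permutation p was 0.00216. Poly I:C pups ranged from 10.2 to 11.1, with a median of 10.4, and 5 of 6 were below every saline pup. The Poly I:C mean was 8.65% lower (log2 difference -0.13, limma p = 0.00722, adjusted p = 0.306, exact permutation p = 0.00433).

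MAM pups had Dusp1 at 10.9 to 11.4 TPM, with a median of 10.9, and 5 of 6 were also below every saline pup. Here the tests disagreed, with a limma p of 0.107 (log2 difference -0.07, adjusted p = 0.485) and an exact permutation p of 0.0152. Between treatments, Dusp1 was 0.10 higher in MAM than in Low Protein on the log2 scale (exact permutation p = 0.0108), and Poly I:C was at -0.06 relative to MAM (exact permutation p = 0.0390). Both the Low Protein and Poly I:C differences kept a limma p under 0.05 in all fits without 1 pup or 1 litter. Without Saline pup 1 of litter 2, the pup with the high ganglionic eminence markers, Dusp1 was at -0.15 for Low Protein and at -0.11 for Poly I:C, and Egr1 was at -0.79 for Poly I:C. Of 5 ganglionic eminence and striatum markers tested, 4 were lower in Low Protein (4.58% of all genes tested), 3 in MAM (8.18%) and 0 in Poly I:C (5.7%). All 5 values were below 0 in each of these groups, with medians of -0.38, -0.26 and -0.17 in the same order. In Poly I:C, 2 of 7 radial glia markers tested were higher, Pax6 by 0.28 and Hes1 by 0.23 on the log2 scale, and 2 of the 7 were below 0. Of 7 dorsal telencephalon markers 1 was higher, Lhx2 by 0.28, and 2 were below 0. Of 2 intermediate progenitor markers 1 was higher, Neurog1 by 0.71. The share of all genes tested that were higher in Poly I:C was 4.25%. Lhx2 was also higher in Low Protein and MAM, by 0.25 and 0.25, and Hes1 in MAM, by 0.27. Of 3 thalamus markers, all below the filter, 1 was higher in Poly I:C and 0 in Low Protein and MAM. Their summed value was 0.638 to 4.80 in Poly I:C (median 2.63) and 0.877 to 3.62 in saline (median 1.39). Of 3 microglia markers tested, 2 were higher in MAM (3.07% of all genes tested), C1qa by 0.39 and C1qb by 0.33, and 0 in Low Protein and Poly I:C. The part of tissue composition in the Dusp1 and Egr1 differences was not tested.

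**Figure D2:**
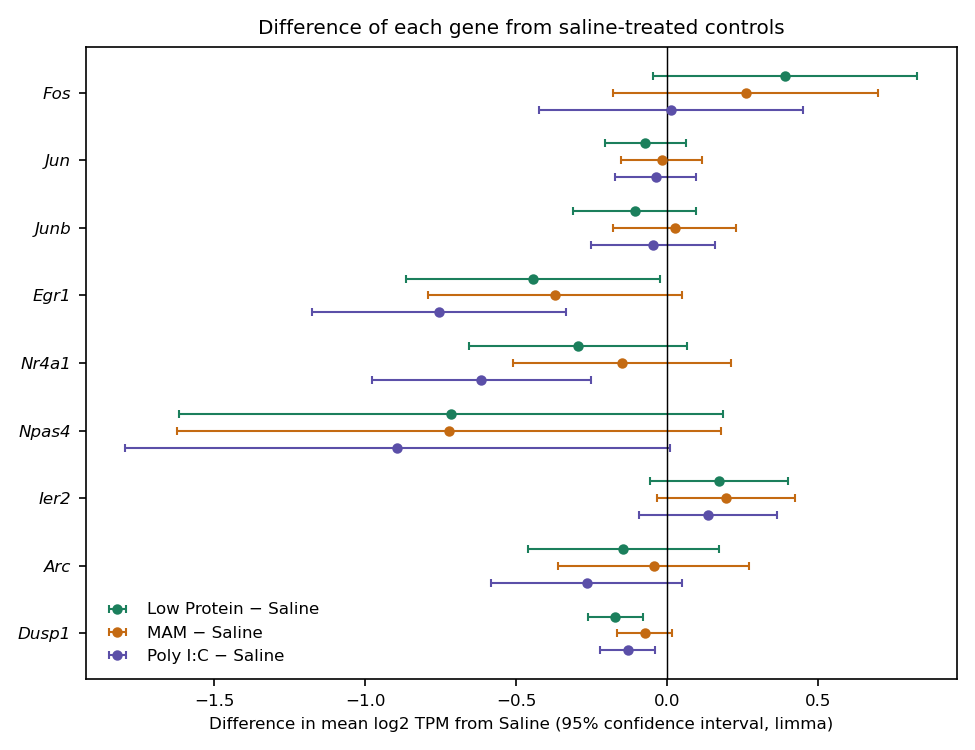
Difference in mean log2 TPM between each treatment group and saline (horizontal axis, 0 for no difference) for 9 of the 10 genes, with points for the limma estimate and bars for its 95% confidence interval. Fosb is left out because 1 pup at the offset sets its interval. The Poly I:C intervals of Egr1, Nr4a1 and Dusp1 and the Low Protein intervals of Egr1 and Dusp1 lie below 0.

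Ier2 encodes a short nuclear protein of the immediate early response. Saline pups had Ier2 at 10.7 to 13.2 TPM (median 11.9), Poly I:C pups at 9.79 to 18.3 (median 12.8), MAM pups at 12.8 to 14.4 (median 13.5) and Low Protein pups at 10.1 to 15.0 (median 14.1). All 3 groups overlapped with saline. In limma Ier2 passed in no group, with log2 differences of 0.14 for Poly I:C, 0.20 for MAM and 0.17 for Low Protein and adjusted p of 0.715, 0.472 and 0.681. The exact permutation p of MAM was 0.00866, on the other side of the threshold from the limma p of 0.0894. Litters of Poly I:C did not overlap, with a mean of 11.0 in litter 1 and 15.6 in litter 2, and the Poly I:C difference was 0.39 without litter 1 and -0.11 without litter 2. Absence of overlap between litters was also seen for Npas4 in Poly I:C, Egr1 in saline and Junb in Low Protein. Chance alone readily separates 3 pups from 3, and the litter differences were not tested. Litter accounted for 50.02% of the variation of Ier2 within groups, the highest share of the 10 genes, and for 2.04% of that of Dusp1, the lowest. The other genes lay between 8.79% for Arc and 34.39% for Npas4. Such a share is above 0 also where litters do not differ, and it was not tested.

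Npas4 encodes a neuron-specific factor induced by calcium entry. Its values rest on 2 to 34 reads a pup. Saline pups had Npas4 at 0.0380 to 0.0965 TPM (median 0.0751), Poly I:C pups at 0.00819 to 0.0679 (median 0.0469), MAM pups at 0.0262 to 0.0770 (median 0.0406) and Low Protein pups at 0.0211 to 0.0727 (median 0.0428). The 3 treated means were 37.6%, 36.8% and 35.7% below saline, and each group overlapped with it. The log2 differences of -0.89, -0.72 and -0.72, in the same order, did not pass the threshold (exact permutation p = 0.0606, 0.0519 and 0.0606). The Poly I:C difference was -1.62 without Poly I:C litter 1 and -0.17 without litter 2, whose means were 0.0621 and 0.0279.

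Arc encodes a cytoskeleton-associated protein of synapses. Arc lay at 0.651 to 1.00 TPM in saline pups (median 0.683), at 0.425 to 0.821 in Poly I:C pups (median 0.598), at 0.565 to 0.832 in MAM pups (median 0.700) and at 0.509 to 0.801 in Low Protein pups (median 0.685). The groups overlapped, and 4 of 6 Poly I:C pups were below every saline pup. The Poly I:C difference of -0.27 on the log2 scale (95% confidence interval -0.58 to 0.05) did not pass (limma adjusted p = 0.633, exact permutation p = 0.16). With 1 pup left out it ranged from -0.36, without Poly I:C pup 1 of litter 1, to -0.16, without pup 3 of that litter, and it passed the limma threshold without the former and without the whole of Poly I:C litter 1.

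Fos and Fosb encode partners of JUN in the AP-1 dimer. Fos rested on 19 to 104 reads a pup and lay at 0.150 to 0.321 TPM in saline pups (median 0.239), at 0.190 to 0.303 in Poly I:C pups (median 0.220), at 0.220 to 0.415 in MAM pups (median 0.252) and at 0.221 to 0.462 in Low Protein pups (median 0.282). Fos did not pass in any group. Its log2 differences were 0.01 for Poly I:C, 0.26 for MAM and 0.39 for Low Protein. The 95% confidence intervals were -0.42 to 0.45, -0.18 to 0.70 and -0.05 to 0.83 in the same order. In Poly I:C, where Egr1 and Nr4a1 were lowest, the Fos estimate was near 0 with a wide interval. Fos was not tested against those genes. The Low Protein value was 0.70 without Low Protein litter 1 and 0.09 without litter 2. Fosb had 0 to 36 reads a pup, and its largest difference, -0.84 in Low Protein, was 0.05 with 0.1 added to each value, since 1 Low Protein pup was at the offset.

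Jun and Junb encode the JUN partners. Jun lay at 18.5 to 21.5 TPM in saline pups, at 16.3 to 21.2 in Poly I:C pups, at 18.6 to 21.8 in MAM pups and at 17.2 to 21.1 in Low Protein pups. The Jun differences were -0.04 for Poly I:C, -0.02 for MAM and -0.07 for Low Protein on the log2 scale, and their 95% confidence intervals lay between -0.21 and 0.12. Junb lay at 3.37 to 4.42 TPM in saline pups, at 2.95 to 4.53 in Poly I:C pups, at 3.57 to 4.75 in MAM pups and at 3.29 to 4.72 in Low Protein pups. Its differences were -0.05, 0.03 and -0.11 in the same order, with intervals between -0.31 and 0.23.

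Other members of the same families were compared in the same way. Of these and the further genes named below, 30 comparisons passed the limma threshold, and with each pup and litter left out in turn 7 of the 30 passed in all 32 fits, namely Egr3 and Dusp5 in 2 groups each and Dusp2, Ets2 and Nab2 in Low Protein. The other 23 did not pass in at least 1 fit, and 9 of them did not pass without Saline pup 1 of litter 2, the pup with the highest ganglionic eminence markers. Egr2, Egr3 and Dusp5, which are below the filter, were added after their values were seen. Further listed genes below the filter also had a limma p under 0.05 and are not among the 30. Examples are Maff, lower in Poly I:C, Spred1, lower in MAM, and Atf3, higher in Low Protein. The 30 are thus a chosen set and not a count over the lists. Egr2 and Egr3 are the close relatives of Egr1, and both were lower in Poly I:C. Egr3 ranged from 0.563 to 0.934 TPM in saline (median 0.695) and from 0.314 to 0.583 in Poly I:C (median 0.459), with 5 of 6 pups below every saline pup. The log2 difference was -0.67 (SE 0.191, limma p = 0.00204, adjusted p = 0.346 without the filter, exact permutation p = 0.00649). In Low Protein, Egr3 ranged from 0.303 to 0.581 (median 0.499), a log2 difference of -0.59 (limma adjusted p = 0.682, exact permutation p = 0.0130). In MAM it ranged from 0.391 to 0.836 (log2 difference -0.28, exact permutation p = 0.173).

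Egr2 ranged from 0.0630 to 0.119 TPM in saline and from 0.0322 to 0.0706 in Poly I:C, and 4 of 6 Poly I:C pups were below every saline pup. Its log2 difference was -0.64 in Poly I:C (limma p = 0.0224, adjusted p = 0.471, exact permutation p = 0.0195). The values of -0.51 in MAM and -0.45 in Low Protein did not pass (exact permutation p = 0.136 and 0.0541). Egr4 had 1 Poly I:C pup at the offset and did not pass in any group. Nr4a2 had a log2 difference of -0.29 in Poly I:C (limma adjusted p = 0.532, exact permutation p = 0.141), and Nr4a3 one of 0.11 (exact permutation p = 0.688). Jund, a further JUN, was lower in Poly I:C at 66.5 to 91.5 TPM, against 81.6 to 113.5 in saline (log2 difference -0.20, limma p = 0.0244, adjusted p = 0.416), but its exact permutation p was 0.0693, and without Saline litter 2 the difference was -0.10. Fosl1 and Fosl2 did not pass in any group.

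**Figure D3:**
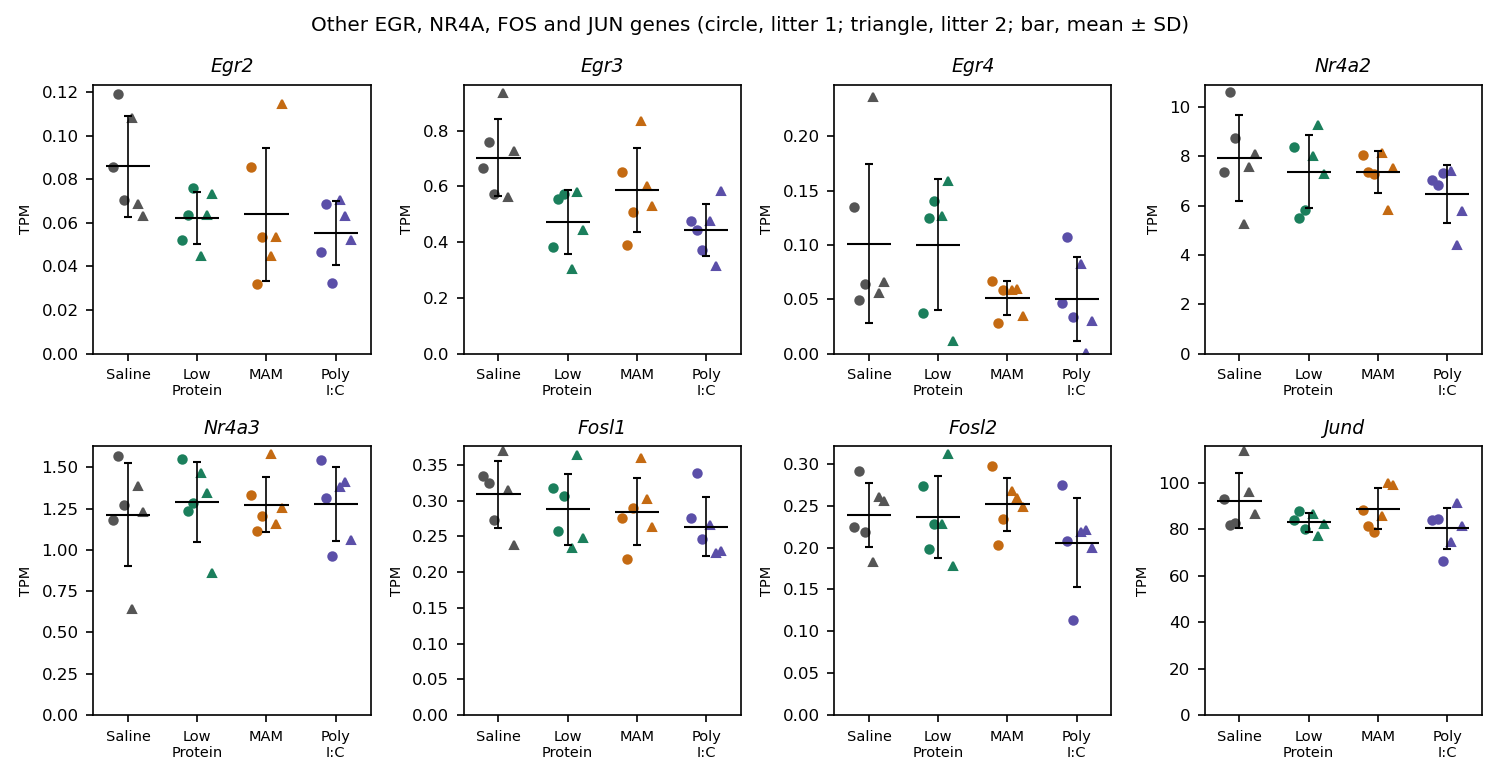
TPM (vertical axes, from 0) of 8 further EGR, NR4A, FOS and JUN genes in each of the 24 pups by group, with circles for litter 1, triangles for litter 2 and bars for the mean ± SD of 6 pups. Of the 6 Poly I:C pups, 5 lie below all saline pups in the Egr3 panel and 4 in the Egr2 panel, while the groups overlap widely in the Nr4a3 panel.

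The wider list of 24 other immediate early transcription factors had 14 genes above the filter. At a limma p under 0.05, 2 were lower and 0 higher in Poly I:C (5.7% and 4.25% of all genes tested), 1 was lower and 1 higher in MAM (8.18% and 3.07%), and 1 was lower and 0 higher in Low Protein (4.58% and 3.66%). The median log2 difference in Poly I:C was -0.04, against 0.01 over all genes tested. The counts depended on the filter. Without it, of all 24, 5 were lower and 0 higher in Poly I:C, 1 lower and 1 higher in MAM, and 2 lower and 1 higher in Low Protein. Of the 14233 genes without the filter 8.92%, 9.56% and 6.98% passed, in the same order, in either direction. Ets2, an ETS family factor, was lower in all 3 comparisons, with log2 differences of -0.22 for Poly I:C, -0.25 for MAM and -0.31 for Low Protein (limma adjusted p = 0.446, 0.416 and 0.455, exact permutation p = 0.0563, 0.0368 and 0.00649). These comparisons share the saline pups. Ier5 was higher in MAM, at 37.4 to 45.1 TPM against 24.96 to 40.87 in saline (log2 difference 0.31, limma p = 0.0329, adjusted p = 0.418, exact permutation p = 0.0152).

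The list of rapidly induced feedback genes holds inhibitors of these pathways and other early induced regulators. Of 19 tested, 2 were lower and 1 higher in Poly I:C (5.7% and 4.25% of all genes tested), 2 lower and 0 higher in MAM (8.18% and 3.07%), and 4 lower and 0 higher in Low Protein (4.58% and 3.66%). The medians were -0.03, -0.12 and -0.09 on the log2 scale, against 0.01, -0.05 and -0.01 over all genes tested. Without the filter, of 27 genes, 3 were lower in Poly I:C (8.92% of all passed in either direction), 5 in MAM (9.56%) and 5 in Low Protein (6.98%). In each comparison 0 were higher. Nab2, which encodes a corepressor bound by EGR proteins, lay at 2.31 to 2.77 TPM in saline pups, at 2.07 to 2.54 in Poly I:C pups and at 1.92 to 2.45 in Low Protein pups. Its log2 difference was -0.27 for Low Protein (limma p = 0.000635, adjusted p = 0.370, exact permutation p = 0.00433). For Poly I:C it was -0.16 (limma p = 0.0257, adjusted p = 0.416, exact permutation p = 0.0303), and for MAM it did not pass (-0.12, exact permutation p = 0.0801).

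Dusp2, a further MAP kinase phosphatase, was lower in all 3 groups, with log2 differences of -0.29 for Poly I:C, -0.40 for MAM and -0.33 for Low Protein (limma adjusted p = 0.376, 0.331 and 0.479, exact permutation p = 0.0584, 0.00866 and 0.0346). Without MAM litter 1 the MAM value was -0.25 and did not pass. Dusp5, a nuclear ERK phosphatase below the filter, was lower in MAM without overlap, as were 0.625% of the genes without the filter, at 0.0496 to 0.0731 TPM against 0.0763 to 0.122 in saline (log2 difference -0.55, limma p = 0.00475, adjusted p = 0.507, exact permutation p = 0.00216). It was also lower in Poly I:C (-0.65, limma p = 0.00109, adjusted p = 0.319, exact permutation p = 0.00866). Spry2, an ERK pathway inhibitor, and Plk3, a polo-like kinase, were lower in Low Protein (log2 differences -0.17 and -0.28), and Plk2, a further polo-like kinase, was lower in MAM (-0.19). The Plk3 difference was -0.18 without Saline pup 1 of litter 2, the highest of the saline pups, and then did not pass. Gadd45g, a stress response gene, was higher in Poly I:C, at 8.38 to 14.0 TPM against 7.21 to 10.3 (log2 difference 0.28, limma p = 0.0461, adjusted p = 0.487), with an exact permutation p of 0.104, and the difference was 0.06 without Poly I:C litter 2.

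Of 9 activity-induced effector genes tested, 2 were lower and 2 higher in Poly I:C (5.7% and 4.25% of all genes tested), 1 lower and 1 higher in Low Protein (4.58% and 3.66%), and 0 lower and 1 higher in MAM (8.18% and 3.07%). Without the filter, of 20 genes, 3 were lower and 2 higher in Poly I:C (8.92% of all passed in either direction). The counts were 3 and 1 in Low Protein (6.98%), and 2 and 1 in MAM (9.56%). Vgf, which encodes a neuropeptide precursor, was lower in Poly I:C (log2 difference -0.45, limma p = 0.0232, adjusted p = 0.404, exact permutation p = 0.0519) and Low Protein (-0.42, limma p = 0.0349, adjusted p = 0.577, exact permutation p = 0.0671). The Poly I:C value was -0.16 without Poly I:C litter 2. Sgk1, which encodes a kinase, was lower in Poly I:C (-0.21, adjusted p = 0.471 with limma), and at -0.10 without Saline litter 1. Cyr61 and Ctgf encode matricellular proteins, and both were higher in Poly I:C, by 0.38 and 0.29 on the log2 scale (limma adjusted p = 0.304 and 0.401, exact permutation p = 0.0152 and 0.0649). Cyr61 was also higher in Low Protein, by 0.39, and Ctgf in MAM, by 0.33. Without Saline litter 2 these 4 differences, in the order given, were 0.24, 0.18, 0.25 and 0.22, and none of them passed.

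Among 12 upstream regulators tested, 1 was lower and 0 higher in each comparison, where 5.7% of all genes tested were lower in Poly I:C, 8.18% in MAM and 4.58% in Low Protein. Without the filter, of 28 genes, 3 were lower and 1 higher in Poly I:C (8.92% of all passed in either direction). The counts were 2 and 0 in MAM (9.56%), and 1 and 0 in Low Protein (6.98%). Mapk3, which encodes the kinase ERK1, ranged from 15.98 to 17.5 TPM in saline and from 14.2 to 15.95 in Poly I:C. The groups did not overlap, although the highest Poly I:C pup and the lowest saline pup were nearly level. Lower values without overlap occurred in 0.354% of the genes tested. The log2 difference was -0.13 in Poly I:C (limma p = 0.00897, adjusted p = 0.312, exact permutation p = 0.00216) and -0.12 in Low Protein (limma p = 0.0134, adjusted p = 0.533, exact permutation p = 0.00433). In MAM the regulator that passed was Mapk9, which encodes a JNK (-0.20, limma p = 0.0395, adjusted p = 0.423, exact permutation p = 0.0758), and it was -0.13 and did not pass without Saline pup 3 of litter 1, the highest of the saline pups. The Mapk3 difference in Poly I:C was -0.09 and did not pass without Poly I:C litter 2.

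With group means subtracted, the 45 pairs of the 10 genes had a median Pearson r of 0.10 over 24 pups, and 4 pairs were above 0.5. Nr4a1 and Arc were most alike (r = 0.68), followed by Egr1 and Nr4a1 (r = 0.57), Jun and Ier2 (r = 0.57) and Junb and Arc (r = 0.51). With litter means subtracted 8 of the 45 pairs were above 0.5, and without the 2 pups farthest from their group mean in the first gene of a pair 2 were, with Jun and Ier2 at 0.24 and Junb and Arc at 0.31. Among all pairs of genes above the filter, with group means subtracted, 13.4% were above 0.5 and the median r was 0.067. The 10 pairs of Jun, Junb, Egr1, Ier2 and Dusp1, the like set, had a median r of 0.095. The values of a pair share the pup's library, depth and dissection. Dusp1 had r = -0.34 with Egr1 and -0.47 with Npas4, although Dusp1 and Egr1 were both lower in 2 of the 3 groups.

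**Figure D4:**
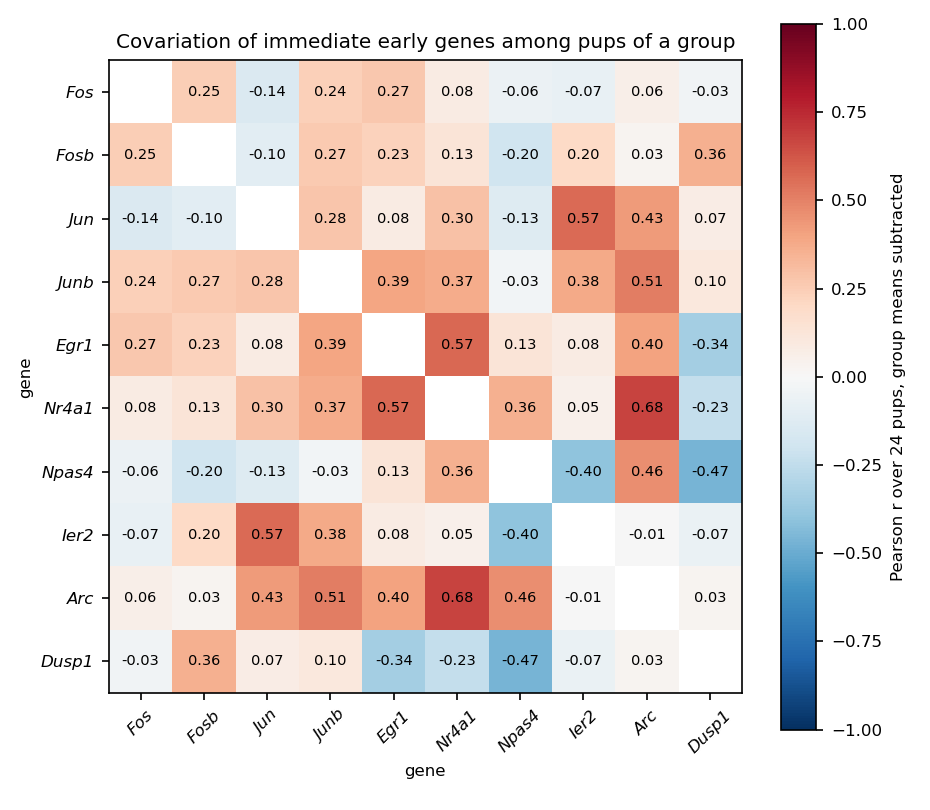
Pearson r of log2 TPM between each pair of the 10 genes over 24 pups, after each group mean was subtracted, in colour from -1 (blue) to 1 (red) and as numbers. The highest values join Nr4a1 with Arc and with Egr1, and Dusp1 is near or below 0 with each gene except Fosb (0.36).

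Outside the 10 genes, those most like the mean of Jun, Junb, Egr1, Ier2 and Dusp1 within groups were Cplx2 (r = 0.85), Maf, Igfbp2, Bcl9l, Tpm4, Mn1, Tnrc18 and Prrc2a (r = 0.83). Dusp1 itself had r = -0.09 with that mean, and Egr1 had 0.76. Leaving out the 2 pups farthest from the median of the mean moved r of these 8 genes to between 0.70 and 0.75. Cplx2, which encodes a presynaptic complexin, was lower in Poly I:C (log2 difference -0.40, limma p = 0.0267, adjusted p = 0.421, exact permutation p = 0.0498), and the other 7 did not pass in any group. The Cplx2 difference was -0.21 and did not pass without Poly I:C pup 3 of litter 1.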

How the data were processed

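RNA from the hippocampus and neocortex of 24 rat pups was sequenced, 6 in each of 4 groups, and the sample names number the litter, then the pup. The authors trimmed reads (phred 30, minimum length 25), aligned them with STAR (version 2.4.1d) to rn6, quantified them against RefSeq Transcripts 80 with Partek E/M and deposited TPM values with an offset of 0.0001. These values sum to 70350.1 in every pup and follow genomic span, so levels were not compared between genes. Reads of a gene were recovered from the size of a step.

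The log2 values were compared with limma (version 3.58.1, R 4.3.3) in 1 fit of all 24 pups. The fit was tested on simulated data in which pups were independent, so an effect of litters was not covered. P-values were adjusted by Benjamini-Hochberg over 5086 genes with a mean above 1 in every group, or, for genes below that limit, over 14233 genes above the offset in at least 6 pups. The threshold was an unadjusted p under 0.05, as in the study, whose limit on the fold change in the Poly I:C and Low Protein comparisons was applied only as an alternative. Mean log2 values were also compared by an exact permutation test (two-sided, 924 splits). Over the 10 genes, 60 pairs of groups were compared, and their p-values were not adjusted. Alternatives covered filter, pseudocount, scaling, samples, litter, block, variance and test, and each pup or litter left out. The fold limit, and the pups and litters left out for genes other than the 10, were chosen after seeing the data.

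The genes, lists and tests were chosen with earlier results of these data known. Named were the 10 genes, up to 4 genes per list and comparison with a limma p under 0.05 and the largest differences, and the 8 genes most like the mean of the 5 genes above the limit. The family members and Dusp5 were added after their values were seen. Motifs were searched on both strands of the 250 bases before each start, and Fos, Jun and Arc were not matched to a promoter.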

Additional observations from a re-analysis of the deposited data

Results flagged for a closer look

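In a group of 6, the highest or lowest pup was marked where its gap to the next was large against the range of the group. Chance marks about 1 in 20 groups, and 5 of 40 were marked. Fosb was at the offset, 0.0001 TPM, in Low Protein pup 2 of litter 1. Jun was lowest, 16.29 TPM, in Poly I:C pup 3 of litter 1. Npas4 was lowest, 0.00819 TPM, in Poly I:C pup 2 of litter 2, where it rests on 2 reads. Arc was highest, 1.003 TPM, in Saline pup 1 of litter 2, the pup with the highest ganglionic eminence markers. Dusp1 was highest, 11.4 TPM, in MAM pup 3 of litter 2.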

How the results depend on the processing

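The lower Egr1, Nr4a1 and Dusp1 in Poly I:C and the lower Dusp1 in Low Protein kept their direction and a p under 0.05 in each alternative in which they were fitted, pups and litters left out included. Lower Egr1 in Low Protein did not pass in 10 of 44 alternatives. A mean above 5 in every group kept only Jun, Ier2 and Dusp1, so Egr1 was left out there and could not pass. The number of genes that passed in Low Protein was 1 in place of 2 without the filter, over all 10 genes, and with a mean above 5. For Poly I:C it was 1 in place of 2 with a mean above 5. With a limit of 0.6 on the size of the log2 difference it was 0 in Low Protein and 1 for Poly I:C. For MAM it was 2 in place of 0 with only the 12 pups compared and with the exact test, and 1 with the median of ratios. For any difference among the 4 groups it was 1 in place of 2 with a mean above 5 and with litter means. Leaving out a pup or litter gave 2 to 3 genes for Poly I:C, 0 to 1 for MAM, 1 to 3 for Low Protein and 1 to 3 for any difference. The median log2 difference of the 5 genes above the filter was -0.107 for Low Protein, -0.0179 for MAM and -0.0463 for Poly I:C. Without the filter, over all 10 genes, it was -0.158 for Low Protein and -0.0892 for Poly I:C. Over the 5 genes above the filter, with the median of ratios, it was 0.0210 for MAM. The medians with a pup or litter left out are also those of the 5 genes. With 1 pup left out the Low Protein median ranged from -0.178 to -0.0868 (-0.154 without Saline pup 3 of litter 1) and the Poly I:C median from -0.0940 to 0.0177 (-0.0932 without Poly I:C pup 2 of litter 1). With 1 litter left out the Low Protein median ranged from -0.181 to -0.0737 and the Poly I:C median from -0.111 to -0.0394. The cause was not tested. Of all MAM calls 27.3% were higher, a share of 60.6% after median of ratios scaling, 56.5% after upper quartile scaling and 63.8% after quantile normalization. Of the 5 genes above the filter, only Ier2 had an adjusted p under 0.05 in any alternative (limma adjusted p = 0.0425 for Poly I:C when its litter 1 was left out). Npas4 and Fosb rest on few reads, which limits what could be detected.

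Same-numbered pups of different groups come from different dams. Over 18 same-numbered pairs with saline, the correlation of their deviations ranged from -0.231 to 0.472, and 5 pups correlated best with their own number. The replicate block left 2 genes in Low Protein, 0 for MAM and 2 for Poly I:C, and 2 for any difference.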
